A study of Mus musculus with 6 samples.

Results

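The genes described here carry glucose into the cell and turn it into pyruvate and lactate. They are 36 genes taken by symbol from the 49315 rows of the count table: 4 glucose transporters, 16 enzyme genes of upper and lower glycolysis, 4 genes of lactate formation and transport, 4 of the entry of pyruvate into mitochondria, 6 regulators of these steps, and the phosphoglucomutases Pgm1 and Pgm2 that join glycolysis to glycogen. All 36 symbols matched a row, and 35 had enough reads to be tested. Their levels were measured by RNA-seq in RAW264.7, a macrophage-like line from mouse with the wild-type genotype. The cells were given SKI-II, a small inhibitor of sphingosine kinases, at 4 μg/mL for 24 h, or DMSO, the vehicle, over the same time. There were 3 libraries for each condition, with 12495957 to 20050677 counts in each, and the comparison asks how the compound changed gene expression in these cells. The libraries come from 1 cell line, and the labels do not say whether the 3 libraries of a condition came from separate cultures, so p-values measure only the spread between these libraries.

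In glycolysis, glucose enters through facilitative transporters, is trapped by hexokinase as glucose 6-phosphate, and is committed to breakdown by phosphofructokinase. The resulting sugar phosphates are oxidised to pyruvate, which is either reduced to lactate and exported by monocarboxylate transporters or carried into mitochondria and oxidised by pyruvate dehydrogenase. Macrophages are known for relying on this route when they are activated, and the transporter Slc2a1, the kinase Hk2 and the lactate exporter Slc16a3 are commonly used as signs of it.

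The response was uneven along the route. At the entry, Slc2a1, the main glucose transporter of macrophages, was 3.38-fold higher in SKI-II, while Slc2a8, an intracellular transporter, fell by 53.1%. Hk3 and Pgm1 rose by 71.6% and 84.1%. Pfkm, Aldoc, Slc16a1, Mpc2 and Pdha1 fell by 21.3% to 39.2%, and the calls of Aldoc, Slc16a1 and Pdha1 did not hold under all alternative settings. None of the 6 genes of lower glycolysis, from Gapdh to Pkm, was called, and their fitted log2 fold changes lay between -0.15 and 0.39. A gene was called when its p in the quasi-likelihood test of edgeR, adjusted by the Benjamini-Hochberg method over all 12274 tested genes, was below 0.05. By this rule 3 of the 35 tested genes were higher and 6 were lower, beside 18.4% of all tested genes called higher and 19.7% called lower. These are 8.57% and 17.1% of the 35. With the further condition of a log2 fold change above 1 or below -1, 1 gene was higher (Slc2a1) and 1 lower (Slc2a8), beside 8.28% and 7.44% of all tested genes. The SKI-II libraries lay wholly above the DMSO libraries for 4 genes and wholly below for 9, against 24.8% and 25.5% of all tested genes. The median log2 fold change of the 35 genes was -0.07, that of all tested genes was 0.00, and 27 of the 35 genes, against 58.0% of all tested genes, changed by less than 0.5 on the log2 scale in either direction. Nothing particular to the 35 genes is read from these shares, and what follows describes the genes themselves.

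**Figure D1:**
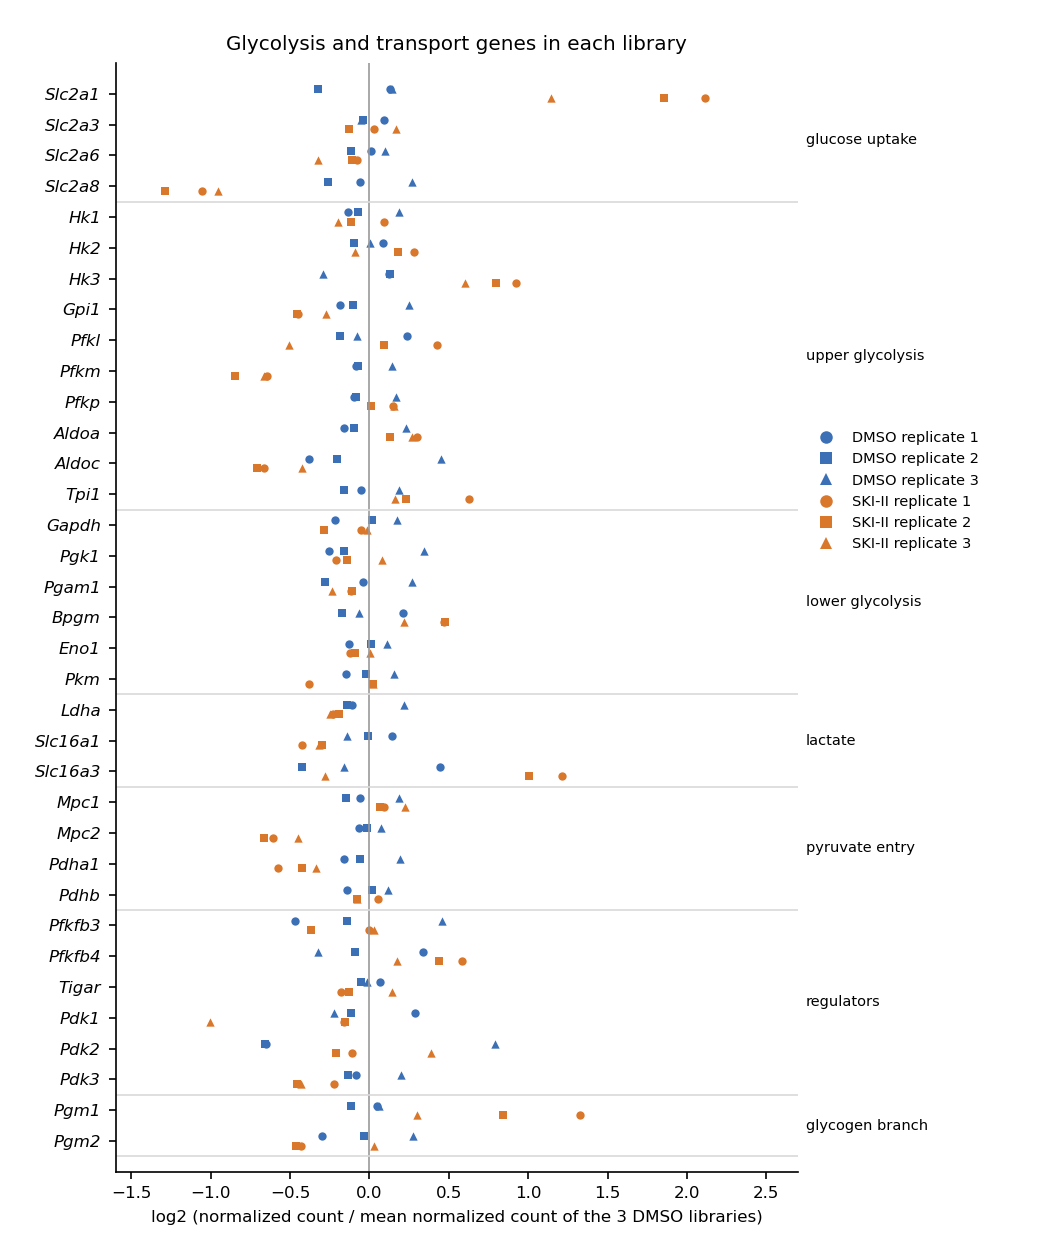
Level of each of the 35 tested genes in each library, as the log2 ratio of its normalized count to the mean of the 3 DMSO libraries (blue, DMSO; orange, SKI-II; marker shape, replicate number), in pathway order from glucose uptake at the top. The 3 SKI-II libraries stand to the right of all DMSO libraries for Slc2a1, Hk3, Bpgm and Pgm1, and to the left for 9 genes that include Slc2a8, Pfkm and Mpc2.

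Macrophage identity and library composition were checked first. All 10 macrophage markers on the list used here passed the filter for testing. Their summed normalized counts were 145109.6 to 210744 after DMSO and 93589 to 132634 after SKI-II, so this sum was lower in every SKI-II library, and its part in the results below was not tested. Markers of B cells, T cells, epithelium, fibroblasts and endothelium summed to at most 20.4 normalized counts in any library, and Ms4a1, Cd3g, Cd8a, Epcam, Krt8, Krt18 and Cdh1 had no count at all. Within its group, DMSO replicate 3 held the highest value of 25 of the 35 genes, and SKI-II replicate 3 held the lowest value of 15 and the highest of 16. In bulk RNA, fewer cells of a type and less RNA per cell cannot be told apart, and this holds for every level given here.

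Of the member groups, glucose uptake held the widest split. Slc2a1 encodes GLUT1, the transporter that sets basal glucose entry in most cells, and lies at chr4:119108711-119137983 (GRCm38, as are the gene positions that follow). Its normalized counts, which are counts scaled to a library of common size, were 3725, 2718 and 3755 after DMSO and 14706, 12279 and 7502 after SKI-II in replicates 1, 2 and 3. Every SKI-II library was above every DMSO library, and SKI-II replicate 3 was the lowest of the treated libraries. The log2 fold change was 1.76 (SE 0.23, 95% interval 1.24 to 2.28, adjusted p = 0.000431 in edgeR's quasi-likelihood test). It was 1.54 to 1.99 when each library was left out in turn.

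Slc2a8 encodes GLUT8, a transporter kept mostly on intracellular membranes, at chr2:32972990-32982083. It was counted at 371, 322 and 465 normalized counts after DMSO and at 186, 158 and 199.6 after SKI-II. The groups did not overlap, and the highest SKI-II library stayed well under the lowest DMSO library. The log2 fold change was -1.09 (SE 0.19, 95% interval -1.51 to -0.68, adjusted p = 0.00155). Without DMSO replicate 3 it was -0.94 with an adjusted p of 0.00374, so the call remained but the change no longer passed -1. Slc2a3, the high-affinity transporter GLUT3, had 1075, 980.5 and 972 normalized counts after DMSO and 1032, 925 and 1135 after SKI-II, with a log2 fold change of 0.03 (95% interval -0.25 to 0.31). Slc2a6, the lysosomal transporter GLUT6, had 1036, 950.2 and 1105 after DMSO and 976, 953 and 823 after SKI-II, with a log2 fold change of -0.17 (95% interval -0.45 to 0.11). The libraries of both genes overlapped between the groups, and changes within these intervals remain possible. The intervals are not adjusted for the number of genes tested, so one can leave out 0 for a gene that was not called.

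Among the 4 transporters, counts per kilobase of exon were used to compare levels between genes. Slc2a1 made up 64.4, 59.3 and 63.2% of this sum after DMSO and 89.3, 88.1 and 81.8% after SKI-II. Slc2a8 went from 7.01, 7.68 and 8.56% to 1.23, 1.24 and 2.38%. The shares of Slc2a3 and Slc2a6 were also lower in all SKI-II libraries, although the level of neither was called, because a share moves with the other genes of its family. Each of these shares had p = 0.10 in an exact two-sided permutation test, the smallest that 3 libraries against 3 can give, and an adjusted p of 0.18 over the 18 shares tested.

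In upper glycolysis, 1 of the 10 genes was higher and 2 were lower, beside 18.4% and 19.7% of all tested genes. Hk3 encodes a hexokinase that is found mainly in blood and myeloid cells, at chr13:55005985-55021385. Its normalized counts were 4023, 4028 and 3013 after DMSO and 6993, 6402 and 5596 after SKI-II, with no overlap between the groups and a log2 fold change of 0.78 (SE 0.15, 95% interval 0.44 to 1.12, adjusted p = 0.00319). Hk1, the widely expressed hexokinase bound to mitochondria, had 6439.7, 6712 and 8019.6 normalized counts after DMSO and 7514, 6509.5 and 6156 after SKI-II. Hk2, the hexokinase that is induced in activated and cancer cells, had 3426, 3026 and 3248 after DMSO and 3921, 3656 and 3032 after SKI-II. Both overlapped between the groups, with log2 fold changes of -0.07 (95% interval -0.38 to 0.24) for Hk1 and 0.13 (95% interval -0.16 to 0.42) for Hk2.

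Per kilobase of exon, Hk3 held 45.1, 45.8 and 35.5% of the hexokinase counts after DMSO and 55.3, 55.8 and 55.3% after SKI-II. Hk1 held 31.2, 32.9 and 40.8% and then 25.6, 24.5 and 26.2%. In 2 of the 3 DMSO libraries Hk3 was already the largest of the hexokinases by this measure, and in DMSO replicate 3 Hk1 was. In SKI-II it was Hk3 in all 3 libraries. This order depends on the exon lengths used, 8532 bases for Hk1 and 3682 for Hk3. Without division by length, Hk1 had more counts than Hk3 in every library of both conditions. Both shares had p = 0.10 in the exact permutation test, the smallest possible.

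The other enzymes of upper glycolysis convert glucose 6-phosphate to triose phosphates. Gpi1, glucose-6-phosphate isomerase, had 17752, 18777 and 23994 normalized counts after DMSO and 14736, 14714 and 16686 after SKI-II. The groups did not overlap, but the gene missed the threshold, with a log2 fold change of -0.39 (95% interval -0.75 to -0.04) and an adjusted p of 0.0783. It passed without DMSO replicate 1 (adjusted p = 0.0427), with library size alone as the scaling (0.0411) and with DESeq2 (0.0499). Pfkm encodes the muscle-type subunit of phosphofructokinase, the committing step of glycolysis, at chr15:98092589-98132451. It was counted at 1655, 1669 and 1939.8 after DMSO and 1122, 974 and 1106 after SKI-II, with no overlap. Its log2 fold change was -0.72 (SE 0.12, 95% interval -0.99 to -0.44, adjusted p = 0.00164).

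The liver-type and platelet-type subunits, which assemble into the same tetramers, were not called. Pfkl had 6048, 4515 and 4864 normalized counts after DMSO and 6909, 5476 and 3621 after SKI-II, and its log2 fold change of 0.05 had a 95% interval of -0.43 to 0.54. Pfkp had 8847, 8901 and 10583 after DMSO and 10479.9, 9526 and 10517 after SKI-II, with 0.11 (-0.19 to 0.41). Its exons overlap those of Pitrm1 on the other strand by up to 748 bases, and since the strand setting of the counting is not given, reads within such shared stretches cannot be assigned to either gene. Per kilobase, Pfkm made up 26.3% ± 1.97 of the phosphofructokinase counts after DMSO and 17.2% ± 2.41 after SKI-II (SD, n = 3), with no overlap. The shares of Pfkl and Pfkp overlapped between the groups. Whether the change of Pfkm differed from those of Pfkl and Pfkp was tested only through these shares.

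Aldolase splits fructose 1,6-bisphosphate. Aldoa, the form that carries almost all of it here, had 32639, 34009 and 42653 normalized counts after DMSO and 44845, 39813 and 43916 after SKI-II, with overlap and a log2 fold change of 0.23 (95% interval -0.14 to 0.60, adjusted p = 0.296). Aldoc, the form best known from brain, at chr11:78322968-78327781, had 1544, 1741 and 2743 after DMSO and 1270.0, 1231 and 1497 after SKI-II. Its libraries did not overlap, and DMSO replicate 3 stood far above the other DMSO libraries. Its fitted log2 fold change was -0.59 (SE 0.20, 95% interval -1.04 to -0.14, adjusted p = 0.0426). The call was lost with limma-voom (adjusted p = 0.0550) and on leaving out replicate 2 or 3 of DMSO or replicate 1 or 2 of SKI-II, and without DMSO replicate 3 the log2 fold change was -0.30 (adjusted p = 0.127). Tpi1, which interconverts the triose phosphates, had 16452, 15271 and 19441 after DMSO and 26339.7, 19999 and 19052 after SKI-II, with a log2 fold change of 0.35 (95% interval -0.03 to 0.74) and an adjusted p of 0.135.

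**Figure D2:**
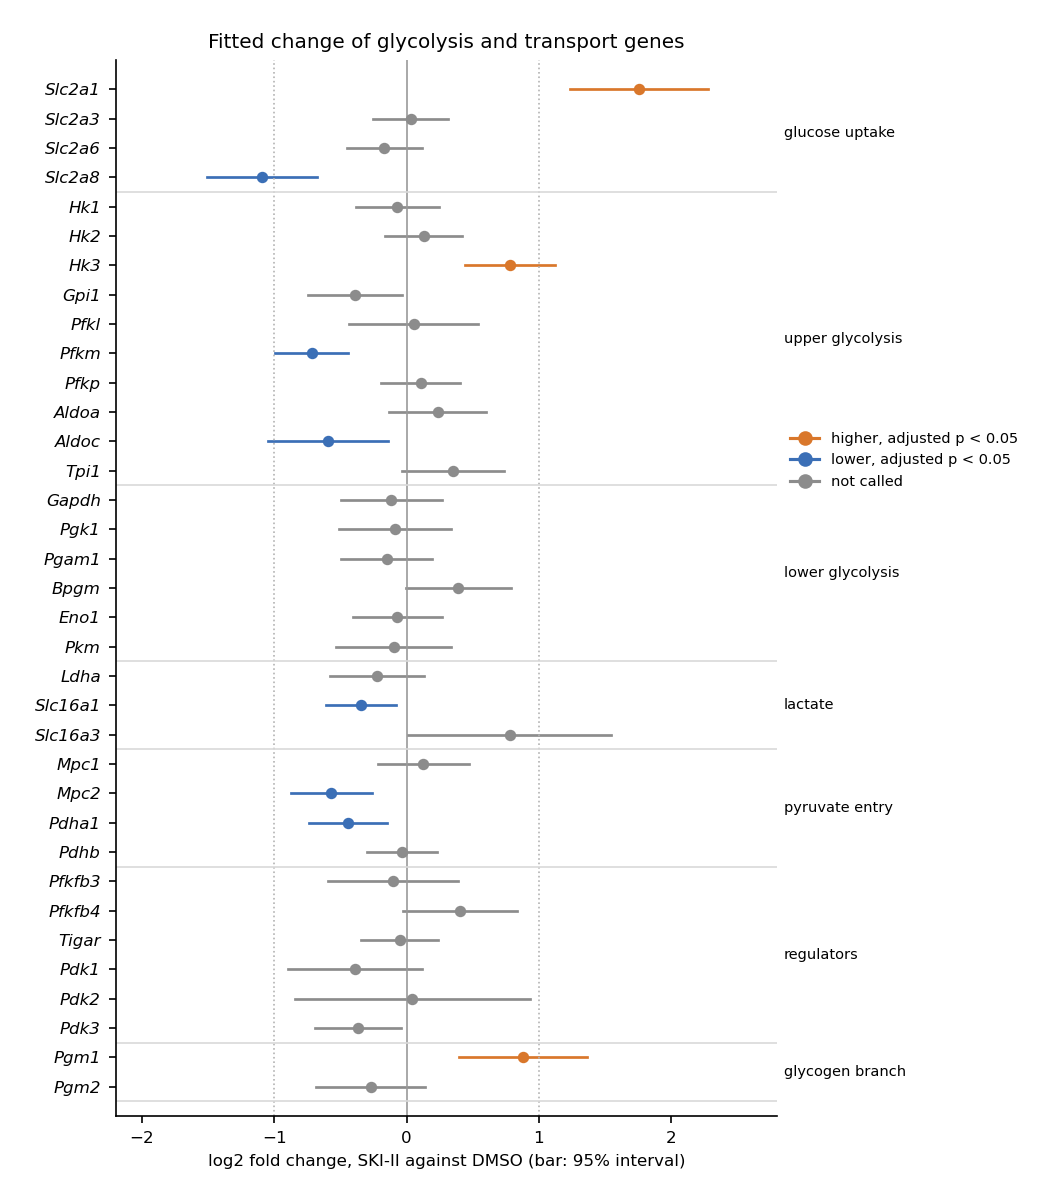
Fitted log2 fold change of SKI-II against DMSO for the 35 tested genes, with 95% intervals from edgeR's quasi-likelihood fit (orange, called higher; blue, called lower; grey, not called; dotted lines at -1 and 1). Slc2a1 at 1.76 and Slc2a8 at -1.09 are the only points beyond the dotted lines, and all 6 genes of lower glycolysis are grey.

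Lower glycolysis makes ATP and pyruvate. Pkm, pyruvate kinase and the most abundant message of the set, had 112066, 122382 and 137903 normalized counts after DMSO and 95479, 126152 and 126237 after SKI-II, with overlap. Its log2 fold change was -0.10 (95% interval -0.53 to 0.34), and it alone took a mean of 0.771% of the DMSO counts and 0.721% of the SKI-II counts. Gapdh, which reduces NAD+ in the first step of this stretch, had 38924, 45919 and 51147 after DMSO and 43666, 37128 and 44874 after SKI-II, with -0.11 (-0.49 to 0.27). Pgk1, the first enzyme of the route to make ATP, had 23504, 25109 and 35624 after DMSO and 24249.6, 25409 and 29669 after SKI-II, with -0.09 (-0.51 to 0.34). The groups of these genes overlapped, and changes within the intervals remain possible.

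Pgam1, phosphoglycerate mutase, had 7963, 6745 and 9841 normalized counts after DMSO and 7564, 7597 and 6941 after SKI-II, with a log2 fold change of -0.15 (95% interval -0.50 to 0.19). Eno1, enolase, had 36688, 40444 and 43446 after DMSO and 36916, 37681 and 40363 after SKI-II, with -0.07 (-0.41 to 0.27). Bpgm, which makes 2,3-bisphosphoglycerate, was the scarcest of the 6, with 231.2, 177 and 190.1 normalized counts after DMSO and 276, 278 and 231.4 after SKI-II. Its SKI-II libraries stood above its DMSO libraries by a narrow margin, and its log2 fold change of 0.39 (95% interval -0.01 to 0.79) was not called (adjusted p = 0.113). Genes elsewhere in the genome that share sequence with Gapdh and Eno1 make both uncertain. A gene was taken as a copy when it held at least 5% of a member's 50-base words. Copies of Eno1 held 26.0% to 27.9% of the combined counts of gene and copies in a library. The 51 copies of Gapdh held 15.2% to 17.0%, most of it on the pseudogene Gm13394. With the copies added, the log2 fold changes were -0.07 and -0.11.

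Counted together, the 36 genes took 2.46% to 2.74% of all counts after DMSO and 2.55% to 2.57% after SKI-II. The 16 genes of the enzymes that act from glucose to lactate took 2.29% to 2.58% and 2.28% to 2.38%. Both sums overlapped between the groups. Per kilobase of exon, Pkm led with 1547 ± 162 CPM, counts scaled to the library's total times its TMM factor, in DMSO (SD, n = 3), followed by Aldoa at 780.2 ± 116, Pgk1 at 780.0 ± 183, Gapdh at 684 ± 92.5 and Ldha at 676 ± 97.0, and the last 4 did not differ beyond their spread. On this scale Slc2a1 went from 60.4 ± 10.5 CPM per kilobase after DMSO to 204 ± 65.2 after SKI-II, and Hk3 from 62.4 ± 9.90 to 107 ± 11.9, so that Slc2a1 and Hk3 did not differ beyond their spread after DMSO. These spreads are between libraries only. The exon lengths join the exons of all transcripts of a gene, and their error was not tested for these levels.

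Lactate formation rested on Ldha, the subunit of lactate dehydrogenase that favours the making of lactate. It had 33254, 32615 and 41837 normalized counts after DMSO and 30560.4, 31398 and 30243 after SKI-II. The groups did not overlap, yet the log2 fold change of -0.22 (95% interval -0.58 to 0.13) was not called, with an adjusted p of 0.294. Ldhb, the subunit typical of heart, had 0 counts in all 6 libraries, where Ldha had 199638. A count of 0 allows up to 3 counts, or 0.00150% of the Ldha counts, and this limit covers counting error only.

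The lactate transporters went opposite ways in their fitted values. Slc16a1, MCT1, which moves lactate and pyruvate in either direction, lies at chr3:104638668-104658462. It had 3399.6, 3058 and 2790.4 normalized counts after DMSO and 2298, 2507 and 2471 after SKI-II, with no overlap. Its log2 fold change was -0.35 (SE 0.12, 95% interval -0.61 to -0.08, adjusted p = 0.0426). The call was lost with library size alone as the scaling (0.0563), with no filter on low counts (0.0985) and on leaving out any library other than DMSO replicate 3 (adjusted p up to 0.119). Slc16a3, MCT4, the exporter of highly glycolytic cells, had 5073, 2768 and 3327 after DMSO and 8627, 7476 and 3064 after SKI-II. In SKI-II replicates 1 and 2 it was above all DMSO libraries, while SKI-II replicate 3 lay between the DMSO libraries. The log2 fold change of 0.78 (95% interval 0.01 to 1.54) had an adjusted p of 0.102 and was not called. Without SKI-II replicate 3 it was 1.11 (adjusted p = 0.00499), without DMSO replicate 1 it was 1.05 (adjusted p = 0.0366), and without SKI-II replicate 1 it was 0.50 (adjusted p = 0.358). It was also called with no filter on low counts (adjusted p = 1.07e-05), where its own counts were the same and 22960 genes were fitted instead of 12274. Its share of the counts of the pair per kilobase was 55.4, 43.0 and 49.8% after DMSO and 75.8, 71.3 and 50.8% after SKI-II, and the groups overlapped (p = 0.20, exact two-sided permutation test).

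**Figure D3:**
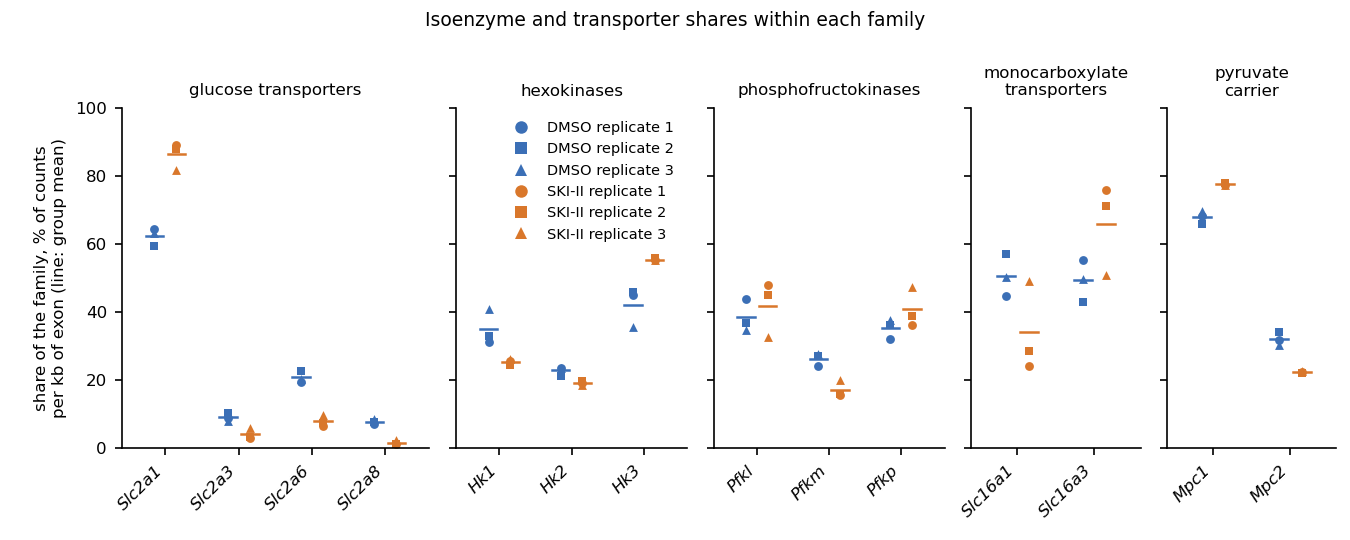
Share of each gene in the summed counts per kilobase of exon of its family, in percent, for 5 families (blue, DMSO; orange, SKI-II; marker shape, replicate number; line, mean of 3 libraries). Slc2a1 moved from a mean of 62.3% to 86.4% of the transporter sum, Hk3 from 42.2% to 55.5% of the hexokinases and Mpc2 from 32.1% to 22.4% of the pyruvate carrier, each with no overlap, whereas Slc16a3 in SKI-II replicate 3 stayed among the DMSO libraries.

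Pyruvate enters mitochondria through a carrier made of Mpc1 and Mpc2. Mpc2, at chr1:165460637-165481214, had 499, 518 and 551 normalized counts after DMSO and 344, 330.2 and 383 after SKI-II. All SKI-II libraries were lower, and the log2 fold change was -0.57 (SE 0.14, 95% interval -0.87 to -0.26, adjusted p = 0.00893). Mpc1 had 303, 284 and 359 after DMSO and 336, 331 and 368 after SKI-II, with overlap and a log2 fold change of 0.13 (95% interval -0.22 to 0.47). The pseudogene Mpc1-ps, which shared 11.0% of the 50-base words of Mpc1, held 9.64% to 13.9% of the combined counts. With this copy added, the log2 fold change of Mpc1 was 0.16. Mpc2 supplied 31.8, 34.1 and 30.3% of the carrier's counts per kilobase after DMSO and 22.5, 22.0 and 22.8% after SKI-II, with p = 0.10 in the exact permutation test, the smallest possible.

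Pyruvate dehydrogenase then turns pyruvate into acetyl-CoA, and Pdha1 and Pdhb encode the subunits of its first enzyme. Pdha1, at chrX:160122209-160138413, had 1662, 1784 and 2120.0 normalized counts after DMSO and 1246, 1379.8 and 1467 after SKI-II, with no overlap and a log2 fold change of -0.44 (SE 0.13, 95% interval -0.74 to -0.15, adjusted p = 0.0241). The adjusted p was 0.0634 without DMSO replicate 2, 0.0746 without DMSO replicate 3, 0.0663 without SKI-II replicate 1 and 0.0701 without SKI-II replicate 2, so that the call was lost each time. Exons of Pdha1 overlap those of Map3k15 on the other strand by up to 425 bases, and Map3k15 had 111 to 252 counts in a library. Pdhb had 2532, 2828 and 3033 after DMSO and 2907, 2647 and 2646 after SKI-II, with a log2 fold change of -0.03 (95% interval -0.30 to 0.23).

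None of the 6 regulators was called, beside 18.4% of all tested genes called higher and 19.7% lower. Pfkfb3 and Pfkfb4 make fructose 2,6-bisphosphate, the activator of phosphofructokinase, and Tigar removes it. Pfkfb3 had 805, 1008 and 1527 normalized counts after DMSO and 1109, 863 and 1137 after SKI-II, with a log2 fold change of -0.10 (95% interval -0.60 to 0.39). Pfkfb4 had 474, 353 and 299 after DMSO and 562, 508 and 424 after SKI-II, with 0.41 (-0.03 to 0.84) and an adjusted p of 0.127. Without DMSO replicate 1, the highest of its DMSO libraries, Pfkfb4 was called higher at 0.60 (adjusted p = 0.0295). Tigar had 912, 838 and 862 after DMSO and 768, 795 and 959.8 after SKI-II, with -0.05 (-0.34 to 0.24).

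The kinases Pdk1, Pdk2 and Pdk3 switch off pyruvate dehydrogenase by phosphorylation. Pdk3 had 610.0, 589 and 744 normalized counts after DMSO and 554, 471 and 481 after SKI-II, without overlap, and a log2 fold change of -0.37 (95% interval -0.69 to -0.05, adjusted p = 0.0701). Pdk1 had 1853, 1401 and 1304 after DMSO and 1361, 1365 and 758 after SKI-II, with -0.39 (-0.89 to 0.12), and SKI-II replicate 3 alone lay far below the rest. Pdk2 was the scarcest, with 58.3, 58.1 and 158 after DMSO and 85, 79.2 and 119.8 after SKI-II. Its DMSO replicate 3 stood apart from the other DMSO libraries, and the interval around its log2 fold change of 0.04 was wide (-0.84 to 0.93).

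Pgm1 and Pgm2 interconvert glucose 6-phosphate and glucose 1-phosphate, the step between glycolysis and glycogen. Older mouse nomenclature used these symbols the other way round, so Pgm1 here is the gene at chr4:99929414-99987294 and Pgm2 the gene at chr5:64092950-64128351. Pgm1 had 1699.8, 1515 and 1715 normalized counts after DMSO and 4126, 2939 and 2021 after SKI-II. All SKI-II libraries were higher, and among them replicate 1 was the highest and replicate 3 the lowest, the same order as for Slc2a1. The log2 fold change was 0.88 (SE 0.22, 95% interval 0.40 to 1.37, adjusted p = 0.0106), and 0.59 without SKI-II replicate 1 (adjusted p = 0.0341). Its exons overlap those of Itgb3bp on the other strand by up to 398 bases, and Itgb3bp had 61 to 93 counts in a library. Pgm2 had 805, 967 and 1200.1 after DMSO and 736, 718 and 1009 after SKI-II, with overlap and a log2 fold change of -0.27 (95% interval -0.68 to 0.14).

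The promoters of the 3 genes that rose are shown beside that of Slc2a8, which fell most, to let their upstream sequence be compared. Each is the 250 bases before the gene's start as RefSeq gives it for GRCm38.p6, 5′ to 3′ in the direction of transcription, in lower case, with capitals where the letters ACGTG, the core of the element bound by hypoxia-inducible factors, occur on either strand (CACGT on the opposite strand).
Slc2a1, chr4:119108495-119108744, plus strand: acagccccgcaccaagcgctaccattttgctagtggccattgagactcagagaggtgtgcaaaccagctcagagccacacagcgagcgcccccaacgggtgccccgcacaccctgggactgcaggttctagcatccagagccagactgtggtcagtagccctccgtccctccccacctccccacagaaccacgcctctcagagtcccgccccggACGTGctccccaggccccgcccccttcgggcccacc
Hk3, chr13:55021386-55021635, minus strand: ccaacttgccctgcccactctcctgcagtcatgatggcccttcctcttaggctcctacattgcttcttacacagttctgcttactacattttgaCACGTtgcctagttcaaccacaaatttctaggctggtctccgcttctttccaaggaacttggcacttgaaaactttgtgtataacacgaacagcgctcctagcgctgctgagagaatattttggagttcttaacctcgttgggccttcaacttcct
Pgm1, chr4:99929201-99929450, plus strand: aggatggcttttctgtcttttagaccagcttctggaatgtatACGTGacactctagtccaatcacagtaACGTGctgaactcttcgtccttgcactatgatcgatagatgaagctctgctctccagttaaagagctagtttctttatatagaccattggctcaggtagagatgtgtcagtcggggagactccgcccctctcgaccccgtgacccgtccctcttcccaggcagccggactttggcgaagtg
Slc2a8, chr2:32982084-32982333, minus strand: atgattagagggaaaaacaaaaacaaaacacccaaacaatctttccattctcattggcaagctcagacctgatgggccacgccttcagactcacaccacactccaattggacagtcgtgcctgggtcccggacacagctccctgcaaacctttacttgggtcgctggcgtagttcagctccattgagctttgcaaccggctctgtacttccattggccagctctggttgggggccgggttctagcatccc

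ACGTG was found at 1 place each in the windows of Slc2a1 and Hk3 and at 2 places in that of Pgm1, and was not found in that of Slc2a8. Of the 36 genes, 35 had a promoter entry, with 50 windows in all, and Slc2a3 had none. ACGTG lay in a window of 17 of the 35 genes (48.6%) and in 40.0% of their windows, against 18.5% of all 27025 genes with an entry and 16.6% of all 32851 windows. By call, it was present in all 3 genes called higher, in 2 of the 6 called lower (Pfkm and Slc16a1) and in 12 of the 25 not called (48.0%). CACGTG, an E-box that contains ACGTG and so is counted in both, was present in 5 of the 35 genes (14.3%) against 6.86% of all genes. These were 2 of the 6 called lower, again Pfkm and Slc16a1, and 3 of the 25 not called. TGACNNNGC, the core of the antioxidant response element, was present in 5 of the 35 genes (14.3%) against 11.5% of all genes. These were 1 of the 6 called lower (Slc16a1) and 4 of the 25 not called. These are matches of letters within these windows, and binding was not measured.

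Further genes of the same chemistry were taken from lists of 85 symbols, of which 84 matched a row and 52 were tested. Among these 52 genes, 13 were higher and 10 lower (25.0% and 19.2%), beside the 18.4% and 19.7% of all tested genes. Without DMSO replicate 2 the number higher was 6 of 53, when 1507 of all 12589 genes then tested were higher, and it was 8 of 52 without replicate 1 or without replicate 2 of SKI-II. Of the 16 tested genes in the list drawn up for glycogen metabolism, 6 were higher (Gbe1, Ppp1r3b, Gys1, Ugp2, Phkb and Pgm3) and 3 lower (Pygb, Phka2 and Pgm5). They include Pgm3, known for making amino sugars in the hexosamine route, and Pgm5, a relative of Pgm1 that lacks its enzyme activity, and neither is an enzyme of glycogen metabolism. Gbe1, the glycogen branching enzyme, had 378, 375 and 555 normalized counts after DMSO and 1402, 1129.8 and 874 after SKI-II, with no overlap and a log2 fold change of 1.38 (SE 0.21, adjusted p = 0.000820). Ppp1r3b, which brings a phosphatase to glycogen and activates its synthesis, rose from few reads, with 12, 1 and 6 raw counts after DMSO and 36, 25 and 29 after SKI-II (log2 fold change 2.12, 95% interval 0.82 to 3.43, adjusted p = 0.0140). Without SKI-II replicate 1 its log2 fold change was 1.83 and its adjusted p 0.0634, and without DMSO replicate 1 they were 2.87 and 0.00679. Pgm5 fell from 365, 253 and 185 normalized counts after DMSO to 129, 96.4 and 97 after SKI-II (log2 fold change -1.32, adjusted p = 0.00359).

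Some genes next to the called members were chosen after their values were seen. They are the rest of the called genes of the glycogen list and those called in the lists of gluconeogenesis and of other pyruvate dehydrogenase genes. Gys1, glycogen synthase, had 1422, 1044 and 1222 normalized counts after DMSO and 2602, 2084 and 1363 after SKI-II, with a log2 fold change of 0.71 (adjusted p = 0.0268), and SKI-II replicate 3 lay between the DMSO libraries. Ugp2, which makes UDP-glucose on the way from Pgm1 to glycogen, had 1083, 1132 and 1407 after DMSO and 1656, 1555 and 1742 after SKI-II, with 0.45 (adjusted p = 0.0234) and no overlap. Both calls depended on single libraries, Gys1 losing it without replicate 2 of DMSO or replicate 1 or 2 of SKI-II (adjusted p up to 0.117) and Ugp2 without replicate 1 or 2 of DMSO or replicate 1 or 3 of SKI-II (up to 0.116). Pygb, a glycogen phosphorylase, fell from 1624, 1550.3 and 1783 normalized counts after DMSO to 1047, 1002 and 1013 after SKI-II (-0.70, adjusted p = 0.00125). Phkb and Phka2 encode subunits of phosphorylase kinase, which switches on glycogen breakdown, and they were called in opposite directions. Phkb had 886, 816 and 799 normalized counts after DMSO and 1004, 1141 and 1147 after SKI-II, with no overlap and a log2 fold change of 0.40 (adjusted p = 0.0262). Phka2 had 1438, 1221 and 836 after DMSO and 623, 669.8 and 487 after SKI-II, with no overlap and -0.97 (adjusted p = 0.00451). Pgm3 had 395, 395 and 396 after DMSO and 496, 549.6 and 546 after SKI-II, with no overlap and 0.42 (adjusted p = 0.0269). The calls of Phkb and Pgm3 were lost with no filter on low counts (adjusted p = 0.0590 and 0.0765) and on leaving out replicate 2 or 3 of either condition, and that of Pgm3 also without DMSO replicate 1 (adjusted p up to 0.115 for Phkb and 0.103 for Pgm3).

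Pcx, pyruvate carboxylase, rose from 739, 939 and 1088 normalized counts after DMSO to 1635, 1496 and 1396 after SKI-II (0.71, adjusted p = 0.00552). Of the 4 genes tested in gluconeogenesis, 3 were higher, beside 18.4% of all tested genes. The others were G6pc3, a glucose-6-phosphatase, at 0.45 (adjusted p = 0.0201), and Slc37a4, which carries glucose 6-phosphate into the endoplasmic reticulum, at 0.40 (adjusted p = 0.0474). Pck2 was tested and not called (0.07, adjusted p = 0.713). Pck1, Fbp2, G6pc and G6pc2 of this list had 0 counts in all libraries. Fbp1 had 1 count, in SKI-II replicate 2, so a rise of gluconeogenesis is not read from these calls. The call of G6pc3 was lost without replicate 1 or 2 of DMSO or replicate 3 of SKI-II (adjusted p up to 0.0920), and that of Slc37a4 with DESeq2 (0.0545), with no filter on low counts (0.0994) and without replicate 1 or 2 of either condition (up to 0.196). Dlat, the second enzyme of pyruvate dehydrogenase, fell from 2574, 2923 and 2871 normalized counts after DMSO to 1674, 1683 and 2003 after SKI-II (-0.64, adjusted p = 0.00276). Of the 6 tested in the list of other pyruvate dehydrogenase genes, 3 were lower, beside 19.7% of all tested genes. The others were Pdp2 and Pdpr. Pdp2, a phosphatase that switches the complex on, was at -0.67 (adjusted p = 0.00671). Pdpr, a regulatory subunit of pyruvate dehydrogenase phosphatase, was at -0.42 (adjusted p = 0.0354). The call of Pdpr was lost with library size alone as the scaling (0.0514), with no filter on low counts (0.0650) and without replicate 1 or 2 of DMSO or replicate 2 or 3 of SKI-II (up to 0.115).

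**Figure D4:**
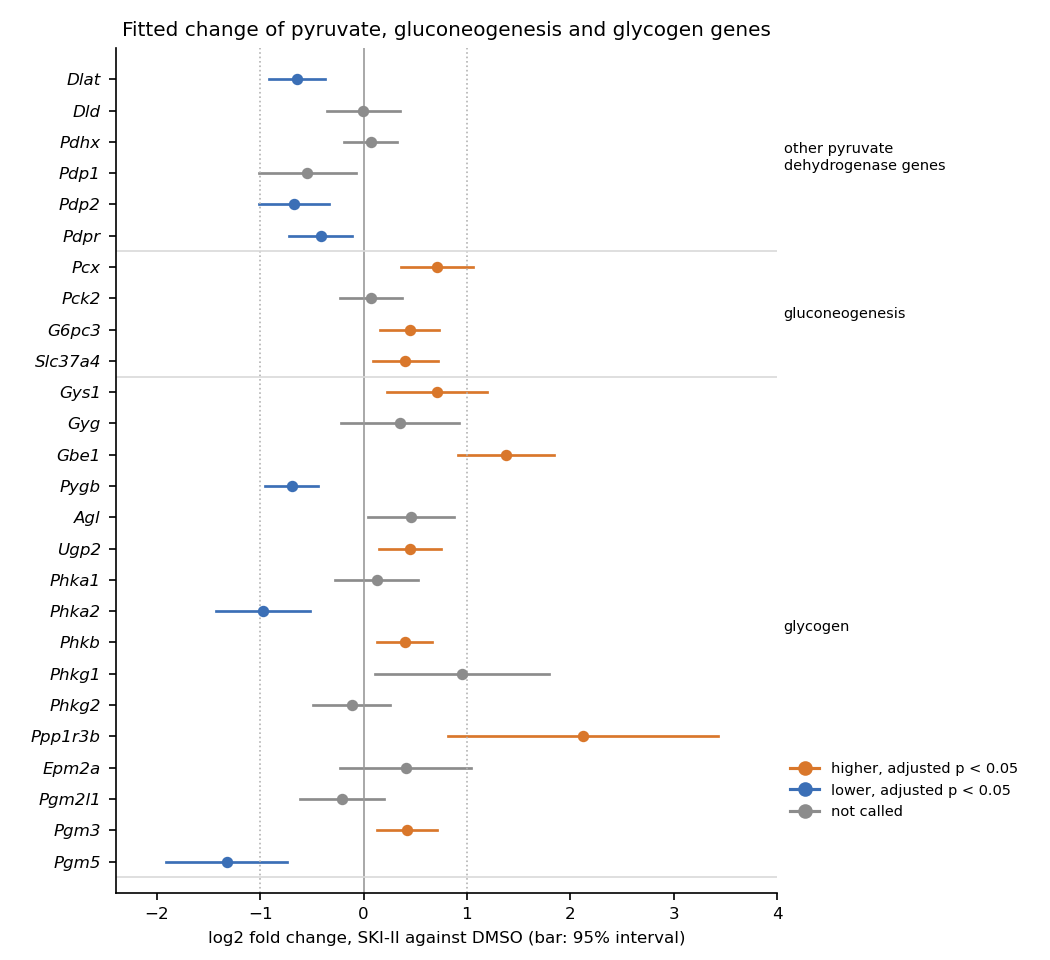
Fitted log2 fold change of SKI-II against DMSO, with 95% intervals, for the tested genes of pyruvate dehydrogenase other than the members, of gluconeogenesis and of the glycogen list (orange, called higher; blue, called lower; grey, not called; dotted lines at -1 and 1). In the glycogen list 6 of 16 genes are orange, among them Gbe1 at 1.38 and Gys1 at 0.71, and 3 are blue, among them Pygb at -0.70.

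The lists of the other glucose transporters, glycolytic isoenzymes and monocarboxylate genes held 1 gene called higher and 3 lower among 2, 10 and 3 tested genes in turn, beside 18.4% and 19.7% of all tested genes. The gene called higher was Slc2a9, best known as a urate transporter (log2 fold change 0.51, adjusted p = 0.0414). Of the 3 lower, Eno3, the muscle form of enolase, is a glycolytic isoenzyme, and its log2 fold change was -0.77 (adjusted p = 0.0124). The others are Enoph1, an enzyme of methionine salvage, at -0.99 (adjusted p = 0.00101), and Pgam5, a mitochondrial protein phosphatase, at -0.46 (adjusted p = 0.0401). These 4 were named after their values were seen, and 2 of the calls depended on single libraries. That of Slc2a9 was lost without replicate 1 or 2 of DMSO or replicate 2 or 3 of SKI-II (adjusted p up to 0.162), and that of Pgam5 without replicate 2 or 3 of DMSO or replicate 1 or 2 of SKI-II (up to 0.106). Bsg, basigin, the partner that carries Slc16a1 and Slc16a3 to the membrane, had 5116, 5542 and 7252 normalized counts after DMSO and 5699.9, 5303 and 6062 after SKI-II, with a log2 fold change of -0.07 (95% interval -0.41 to 0.27). Pdk4, another kinase of pyruvate dehydrogenase, had 0 counts in all libraries.

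Of the 11 tested genes of glucose sensing and glycolysis transcription, 3 were higher and 1 lower (27.3% and 9.09%, beside 18.4% and 19.7% of all tested genes). Myc, a transcription factor that drives many glycolytic genes, had 7.77, 10.1 and 7.92 normalized counts after DMSO and 129.8, 80.2 and 36.7 after SKI-II. The groups were far apart and SKI-II replicate 1 was again the highest, with a log2 fold change of 3.24 (SE 0.52, 95% interval 2.07 to 4.41, adjusted p = 0.000940), though the level in DMSO rested on 8 raw counts in each library. The others called, named after their values were seen, were Sirt6, a deacetylase known for holding down glycolytic genes, with a log2 fold change of 0.86 (adjusted p = 0.00139), Mlx, the partner of the glucose-sensing factor Mlxip, with 0.49 (adjusted p = 0.0185), and Usf2, a factor that binds E-boxes, with -0.67 (adjusted p = 0.00747). The call of Mlx was lost without replicate 2 or 3 of DMSO or replicate 1 or 2 of SKI-II (adjusted p up to 0.0830). Hif1a, the oxygen-regulated factor whose activity is set mostly at the protein level, had 3161, 3938 and 4998 after DMSO and 3347, 3672 and 3994 after SKI-II, with -0.14 (-0.51 to 0.24). Txnip, which limits glucose uptake and whose message follows glucose supply, had 7019, 7125 and 18946 after DMSO and 4642, 6333 and 10713 after SKI-II. Its DMSO replicate 3 was far above the others, and the log2 fold change of -0.61 (95% interval -1.51 to 0.29, adjusted p = 0.266) became 0.03 without that library. Txnip was called lower with no filter on low counts (adjusted p = 0.00117), where its own counts were the same and only the other genes in the fit differed.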

How the data were processed

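Poly(A) RNA of RAW264.7 cells was sequenced by the authors, who, per the labels' processing notes, used Trimmomatic 0.36, STAR 2.5.2b, featureCounts of Subread 1.5.2 and DESeq2. The deposited table used here holds raw counts of reads per Ensembl gene, which the authors had not normalized. Normalized expression values that they also made were not used here. Neither the genome build nor the annotation nor the strand setting was given in the sources used here, and overlapping genes are uncertain. Names, positions and exon lengths were taken from GENCODE M21 (GRCm38), which named 49056 of 49315 identifiers. Identifiers outside it held 0.0102% of the counts. The members and gene lists were chosen with earlier results of these data known.

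Counts were tested in edgeR 4.0.16 (R 4.3.3) by its quasi-likelihood test, with TMM scaling, the default filter by condition (minimum count 10, minimum total 15) and p-values adjusted by Benjamini-Hochberg over the 12274 genes kept. Normalized counts are on the scale of a library of 16042438. The common biological coefficient of variation was 17.5%, and no libraries within a condition agreed within sampling noise (chi-square per degree of freedom 15.4 to 58.1). The genes named are all 36 members, the other listed genes called with a log2 fold change above 1 or below -1, and Hif1a, Myc, Txnip, Bsg and Pdk4. Others are said to have been chosen later. Family shares used counts per kilobase of exon and exact two-sided permutation tests in scipy 1.17.1. The alternatives were DESeq2 1.42.0, limma-voom (limma 3.58.1), RLE scaling, library size alone, no filter, a filter of 10 counts in each of the libraries, leaving out each library, the replicate number as a block, other gene lengths and, added later, near-identical copies. Data were simulated for this comparison with the same dispersion of 0.03 for every gene and 200 changed genes. On them edgeR recovered 81% of the genes changed by 1 on the log2 scale (12131 genes, 1 false call). At 2 it recovered 99.5% (12125 genes, 13 false calls). These figures describe that setting only.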

Additional observations from a re-analysis of the deposited data

How the results depend on the processing

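Of the 9 calls among the members, those of Slc2a1, Slc2a8, Hk3, Pfkm, Mpc2 and Pgm1 held under all 14 alternatives run for each gene, and those of Aldoc, Pdha1 and Slc16a1 did not. When each library was left out in turn, the number of genes called higher was 3 to 5 and of genes called lower 3 to 6. With the condition on the log2 fold change, 1 to 3 were higher and 0 to 1 lower, and the median log2 fold change was -0.18 to 0.00096. Leaving out DMSO replicate 1 gave 5 genes higher, a median of -0.18 and 2 higher past the fold condition. Leaving out SKI-II replicate 3 gave 3 past that condition, replicate 2 of DMSO or replicate 1 or 2 of SKI-II gave 3 genes lower, and DMSO replicate 3 gave 0 genes past -1. For the other pathway genes the number higher was 6 to 11 instead of 13, at 6 without replicate 2 of DMSO and 8 without either replicate 1 or 2 of SKI-II. The counts over all tested genes fell as well, to 1507 to 2227 higher instead of 2255 and 1766 to 2387 lower instead of 2413, with the lowest of both without replicate 2 of DMSO. Fewer libraries enter these fits, and the cause was not otherwise tested. Signs that turned on leaving out a library were those of uncalled genes, all but Txnip (-0.61) between -0.14 and 0.053 with all libraries, whose log2 fold changes ranged over -0.047 to 0.10 for Slc2a3, -0.16 to 0.030 for Hk1, -0.18 to 0.27 for Pfkl, -0.21 to 0.12 for Pgk1, -0.18 to 0.019 for Pkm, -0.12 to 0.026 for Pdhb, -0.31 to 0.19 for Pfkfb3, -0.16 to 0.0043 for Tigar, -0.21 to 0.70 for Pdk2, -0.18 to 0.092 for Bsg, -0.30 to 0.047 for Hif1a and -1.01 to 0.030 for Txnip. The share of Pdk3 differed by -0.41 percentage points and by 0.35 without division by length, and ranged from -3.19 to 1.94 on leaving out a library, as that of Pdk1 did from -5.88 to 2.68.

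The replicate numbers were not taken to pair the libraries, since the correlations of same-numbered libraries' deviations from their group means were 0.246, 0.00994 and 0.458, and DMSO replicate 1 correlated better with SKI-II replicate 2 (0.296) than with SKI-II replicate 1. With the number as a replicate block, 5 members were higher instead of 3, with Slc16a3 and Pfkfb4 added, Gpi1 and Pdk1 passed as lower, and so did Txnip among the other genes named (adjusted p = 0.0121). Adding the counts of copies, an alternative chosen after seeing the data, changed no call. Depth limited the genes with few reads, such as Ppp1r3b and Myc, which gave no value when 10 counts were required in every library.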
